A study of Rattus norvegicus with 24 samples.

Results

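B cells recognise antigen through a membrane immunoglobulin, the B cell receptor, which signals inside the cell through its partners Cd79a and Cd79b. Coreceptors tune that signal: Cr2 (CD21), a receptor for complement fragments, lowers the threshold for activation, and Cd22, an inhibitory lectin, raises it. In arthritis models induced with collagen, B cells are the source of the antibodies to collagen, and circulating B cells are part of the mononuclear fraction of blood that was profiled here. The genes described are 9 that mark B cells or take part in antigen recognition: Ms4a1, Cd79b, Cd22, Cr2, Fcer2, Fcrla, Fcmr, Pou2af1 and Blk. They were chosen by symbol, from probe sets that the platform annotation assigns to a single gene, with earlier results of these data known. They are 9 of 14217 genes so annotated and are read by 16 of 31042 probe sets, all of which passed the filter on low signal described with the processing.

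RNA from mononuclear cells, prepared on Ficoll from the blood of female Wistar rats, was hybridised to Affymetrix whole-genome rat arrays, a single-colour platform on which several short probes near the 3′ end of a transcript form a probe set. There were 24 arrays in 12 groups of 2, each array from a separate rat that was sacrificed at sampling, so no rat was followed over time. Arthritic rats (CIA, RA in the labels) had been immunised with bovine type II collagen in adjuvant, and one CIA group was sampled at baseline, before any therapy. The other CIA rats were sampled at 1 hour or at 34 days after the start of therapy in 4 arms: MS (needle stimulation of the skin, AP in the labels), MTX (methotrexate injection), PLA (saline injection) and ANE (isoflurane at blood sampling, where MS, MTX and PLA rats were given ether, with no other therapy). Healthy rats (NOCIA, NORA in the labels) were sampled untreated at baseline, 1 hour and 34 days. The anaesthetic given to them and to CIA rats at baseline is not stated in the sources used here. The labels call the strain Wistar and give no allele or age. A difference between an arm at 34 days and CIA baseline therefore holds the therapy, the elapsed time and the course of the disease together. It may also hold the anaesthetic, as may a difference between an arm and NOCIA rats.

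Values are RMA levels on the log2 scale, so that a difference of 1 is a 2-fold difference. Differences are given with their SE from limma, n = 2 arrays in each group, and a probe set is said to have risen, fallen or passed only where the Benjamini-Hochberg adjusted p over 20690 probe sets was under 0.05. An array is named by its group and replicate number, and a positive difference means a higher level in the group named first. Where a gene has several probe sets, values are those of its brightest one unless another is named. The array medians lay between 5.49 and 5.58, so the arrays were alike in overall level. Markers of the other mononuclear cells were well above the array medians, with Cd3e (T cells) at a mean level of 11.36 and Cd14 (monocytes) at 10.68. Platelet transcripts set some arrays apart: their mean level, centred on each gene's mean, was 1.18 in MS 34-day replicate 1, 1.08 in MS 1-hour replicate 1, 0.88 in ANE 1-hour replicate 1 and 0.80 in PLA 1-hour replicate 2, and lay between -0.62 and 0.45 in the others. Fits without these 4 arrays are given beside the results they move. Counts from fits that leave out arrays or change the settings come without the share of all probe sets in the same fit. They describe how stable the calls were and are not read as results about the B cell genes.

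The promoters of Cr2 and Fcrla are shown because they hold a motif searched for and because the arrays treat these genes differently, as described below. Windows from 250 bases before to 50 bases after the start of the gene were in the RefSeq table (GRCr8) for 4 of the 9 genes, Cd22, Cr2, Fcrla and Fcmr. The motif CAGGTG, an E-box that E proteins of the B lineage can bind, was found on either strand in the windows of Cr2 and Fcrla, against 18.7% of 27457 promoters of the same length. The first base of the match lay 139 bases before the start of Cr2, where it reads CACCTG on the strand of the gene, and 84 bases before the start of Fcrla. The octamer ATGCAAAT, the EBF1 motif (TCCC and GGGA with 2 bases between them) and the PU.1 motif GAGGAAGT, searched on both strands, were in 0 of the 4 windows and in 1.64%, 0.841% and 2.44% of all promoters. None of the matches overlapped another motif searched. A match describes letters in the window and not a site in use. The 250 bases before the start, 5′ to 3′ on the strand of the gene, are chr13:109244507-109244756 (minus strand) for Cr2 and chr13:85702827-85703076 (minus strand) for Fcrla, with the E-box in capitals.
Cr2: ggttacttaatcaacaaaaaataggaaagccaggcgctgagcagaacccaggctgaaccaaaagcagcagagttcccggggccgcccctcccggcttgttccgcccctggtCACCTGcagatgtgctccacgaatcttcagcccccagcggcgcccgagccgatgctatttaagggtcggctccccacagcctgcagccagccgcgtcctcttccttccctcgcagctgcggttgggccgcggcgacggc
Fcrla: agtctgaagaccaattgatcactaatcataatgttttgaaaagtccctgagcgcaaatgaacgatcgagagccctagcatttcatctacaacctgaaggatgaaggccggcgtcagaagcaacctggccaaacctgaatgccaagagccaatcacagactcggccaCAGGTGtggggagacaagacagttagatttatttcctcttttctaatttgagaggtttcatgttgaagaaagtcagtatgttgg

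Across the 12 groups the B cell genes were highest in healthy rats at baseline or in ANE rats at 34 days, and lowest in MS and NOCIA rats at 34 days. Of the 16 probe sets, 9 differed among the 12 groups by limma's F test, against 2.26% of all probe sets. These read Pou2af1 (adjusted p = 0.00294), Ms4a1 (0.0168), Fcrla on both its probe sets (0.0193 and 0.0476), Cr2 on its brightest and on its dimmest (0.0497 and 0.0245), Fcmr (0.0255), Cd79b (0.0322) and Fcer2 (0.0417). The dimmest Cr2 probe set, 1381328_at, passed the filter only through the 2 NOCIA baseline arrays, where it was highest (5.16 and 5.12). The filter thus favoured its calls, which are not support. The brightest probe sets of Cd22 (adjusted p = 0.174) and Blk (0.0771) did not pass. The count of 9 rested on several arrays: it was 1 without either NOCIA array at baseline or at 34 days, 3 without either CIA baseline or MTX 1-hour array, 4 without either MTX 34-day array or ANE 34-day replicate 2, and 5 without either PLA 34-day array. It was 14 without the 4 arrays rich in platelet transcripts.

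**Figure D1:**
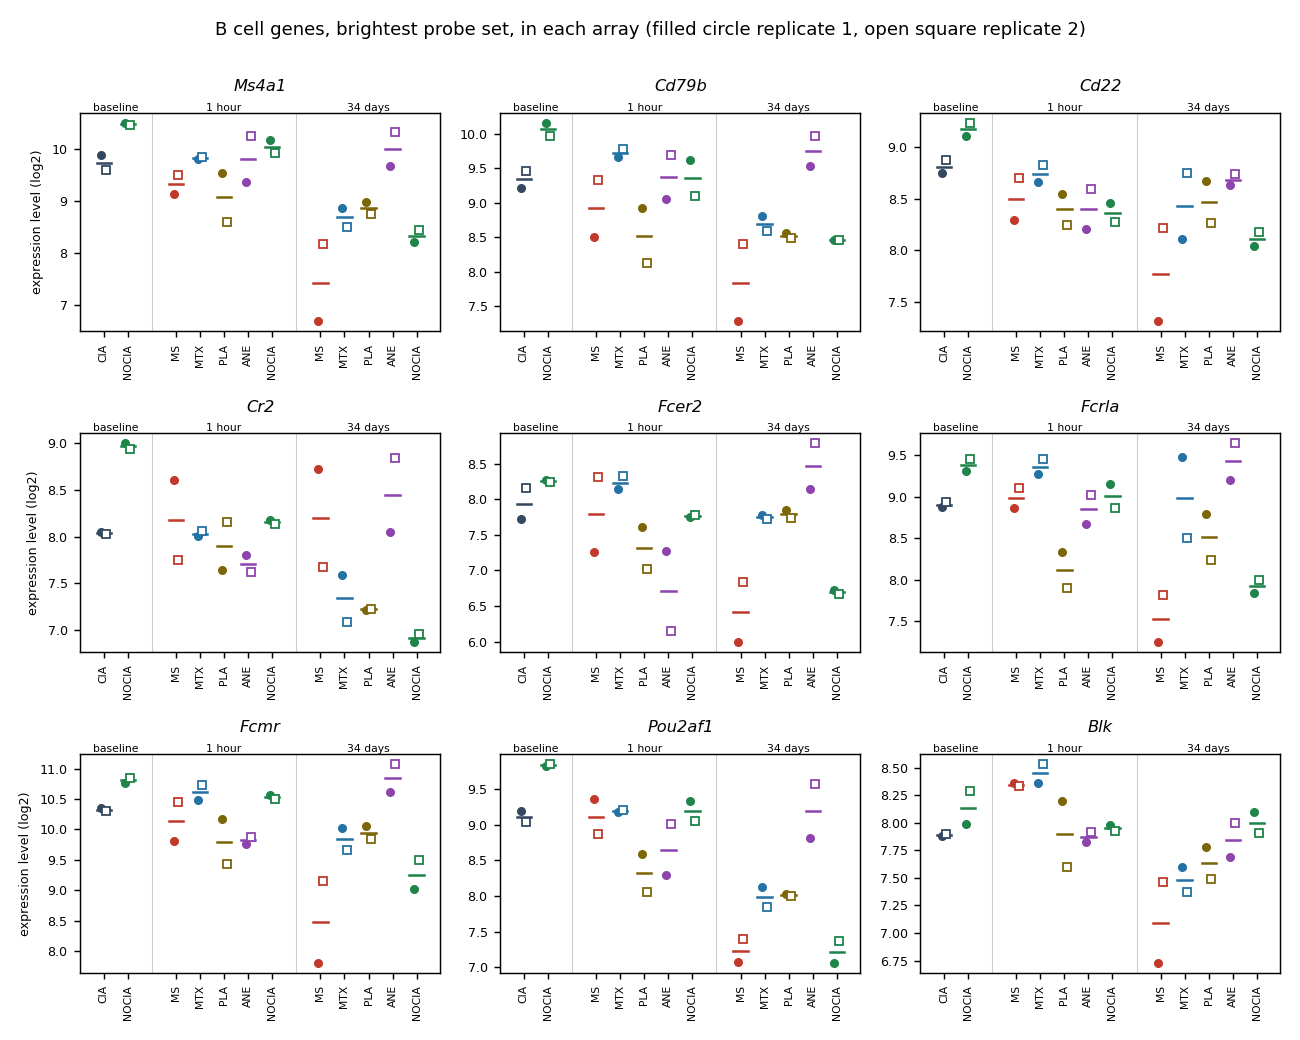
Level of each gene (log2, brightest probe set) in each of the 24 arrays, by group, with baseline, 1 hour and 34 days from left to right; filled circles are replicate 1, open squares replicate 2 and bars the mean of the 2. At 34 days, MS and NOCIA rats lie low for most genes and ANE rats high, and MS replicate 1 is the lowest array for 7 of the genes but one of the highest for Cr2.

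NOCIA baseline stood highest for Ms4a1, Cd79b, Cd22, Cr2 and Pou2af1, ANE at 34 days for Fcer2, Fcrla and Fcmr, and MTX at 1 hour for Blk. MS at 34 days stood lowest for all of them except Cr2 and Pou2af1, for which NOCIA at 34 days stood lowest. Along the 11 steps between neighbouring groups of each gene, the step had an unadjusted p under 0.05 once for Ms4a1, where NOCIA exceeded MS at 34 days by 0.89 ± 0.41 (SE), and once for Fcmr, between the same groups, by 0.78 ± 0.36. For Pou2af1 it did so for NOCIA baseline over ANE at 34 days, by 0.64 ± 0.28, and for MTX over MS at 34 days, by 0.75 ± 0.28. All other neighbours in the order, and all those of Cd79b, Cd22, Cr2, Fcer2, Fcrla and Blk, had unadjusted p-values of 0.05 or more, so their order is not resolved by 2 arrays a group.

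In healthy rats the B cell genes were lower at 34 days than at baseline, although these rats received no therapy. Of the 16 probe sets 10 fell, against 5.66% of all probe sets, and they read 8 of the 9 genes. The 10 include Cr2 1381328_at, which passed the filter only through the NOCIA baseline arrays. Both later arrays were below both earlier ones for 14, against 34.3% of all. The median difference over the 9 genes was -1.56, against -0.02 over all probe sets, and the range was -2.62 to -0.14. In bulk cells a lower level of a B cell transcript can come from fewer B cells or from less RNA in each, among other sources, and these cannot be told apart.

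Pou2af1 (OBF-1), the B cell coactivator of octamer-binding factors, moved most. It was 7.07 and 7.37 in NOCIA rats at 34 days, against 9.82 and 9.85 in NOCIA rats at baseline. The arrays did not overlap, and Pou2af1 fell by 2.62 ± 0.28 (SE), a 6.16-fold difference (adjusted p = 0.00019). Ms4a1 (CD20), the surface protein by which B cells are counted and depleted, had levels of 8.21 and 8.45 at 34 days, against 10.50 and 10.46 at baseline. It fell by 2.15 ± 0.41 (adjusted p = 0.00345), with both later arrays below both earlier ones. Cd79b, the signalling partner of the receptor, was 8.45 and 8.46 at 34 days, against 10.16 and 9.97 at baseline. The pair at each time was tight and the difference was -1.61 ± 0.36 (adjusted p = 0.00872).

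The coreceptors and Fc receptors fell as well. Cr2 was 6.87 and 6.96 in NOCIA rats at 34 days, against 8.997 and 8.94 at baseline, and it fell by 2.05 ± 0.33 (adjusted p = 0.00137). The dim Cr2 probe sets 1381327_a_at and 1381328_at, which exceeded the 40th percentile of an array in 5 and 2 arrays, fell too, by 1.33 ± 0.34 and 2.47 ± 0.34, whereas 1385700_at (-0.97 ± 0.36) and 1392233_at (-0.70 ± 0.33) did not pass. For 1381328_at the 2 arrays were those of NOCIA baseline, so the filter favoured its fall, which is not support. Fcmr, the receptor for IgM, was 9.02 and 9.50 at 34 days, against 10.77 and 10.85 at baseline, a fall of 1.55 ± 0.36 (adjusted p = 0.0103). For Fcer2 (CD23), the low-affinity receptor for IgE, the difference was -1.56 ± 0.38 (adjusted p = 0.0147), and for Fcrla, an Fc receptor-like protein kept inside B cells, it was -1.46 ± 0.30 (adjusted p = 0.0054). The second probe sets of Fcer2 (-1.02 ± 0.44) and Fcrla (-1.30 ± 0.44) had the same sign and did not pass.

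Cd22 fell less, by 1.07 ± 0.28 (adjusted p = 0.0195), with levels of 8.05 and 8.18 at 34 days, against 9.11 and 9.24 at baseline. Blk, a Src-family kinase of B cells, stood out by its small difference: it was 8.10 and 7.90 at 34 days, against 7.99 and 8.29 at baseline. Its arrays overlapped and its difference of -0.14 ± 0.24 did not pass (95% interval -0.64 to 0.37). The number of probe sets that fell was 5 without NOCIA baseline replicate 1, 4 without baseline replicate 2, 4 without 34-day replicate 1 and 6 without 34-day replicate 2. Pou2af1, Ms4a1 and Cr2 passed in all 4 of these fits, Fcrla in 2, Fcmr in 1, and Cd79b, Cd22 and Fcer2 in 0. The log2 differences of these 8 genes stayed between -2.77 and -1.002 when any of the 4 arrays was left out.

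In NOCIA rats the platelet list had mean centred levels of 0.07 and 0.21 at 34 days, against -0.30 and -0.13 at baseline. The NK cell list was lower as well, at -1.04 and -0.74 at 34 days, against 0.58 and 0.51 at baseline, and 2 of its 7 genes fell, Ncr1 (-1.80 ± 0.55) and Prf1 (-1.77 ± 0.55). The T cell list was at -0.13 and -0.41 at 34 days, against 0.47 and 0.48 at baseline, and 1 of its 11 genes fell, Bcl11b (-2.01 ± 0.45). In the neutrophil list Mmp8 was at 1.72 ± 1.23, S100a8 at 1.19 ± 0.96 and Mmp9 at -0.19 ± 0.28, and no gene passed. The part of these shifts in the B cell result was not tested.

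MS rats at 34 days had lower B cell genes than CIA rats at baseline, with Cr2 as the exception. Of the 16 probe sets 8 fell, against 5.44% of all probe sets, and they read 7 of the 9 genes: Ms4a1, Fcmr, Pou2af1, Cd79b, Fcer2, Fcrla and Cd22. Both MS arrays were below both baseline arrays for 11, against 38.4% of all. The median difference over the 9 genes was -1.49, against -0.16 over all probe sets, and the range was -2.30 to 0.16. The 2 MS arrays were far apart for most of the genes.

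Ms4a1 was 6.70 and 8.17 in MS rats at 34 days, against 9.89 and 9.58 in CIA rats at baseline. Both MS arrays were below both baseline arrays, their gap being the widest of the 12 pairs for this gene, and the difference was -2.30 ± 0.41 (adjusted p = 0.0221). Fcmr was 7.81 and 9.16 in MS rats, against 10.35 and 10.31 in CIA rats at baseline, a fall of 1.85 ± 0.36 (adjusted p = 0.0251). Pou2af1 had the closest MS pair of these, 7.07 and 7.40, against 9.20 and 9.04 at baseline, and it fell by 1.88 ± 0.28 (adjusted p = 0.0186). In all of these genes replicate 1 was the lower MS array.

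Cd79b was 7.28 and 8.40 in MS rats, against 9.22 and 9.45 at baseline, a difference of -1.49 ± 0.36 (adjusted p = 0.0364). Fcer2 was 5.99 and 6.84 in MS rats, against 7.72 and 8.16 at baseline, and fell by 1.52 ± 0.38 (adjusted p = 0.0404). Fcrla fell on both probe sets, by 1.37 ± 0.30 on the brighter (adjusted p = 0.0302) and by 2.19 ± 0.44 on 1396132_at (adjusted p = 0.0263). That second probe set was 5.01 and 6.91 in MS rats, against 8.02 and 8.28 at baseline, so that replicate 1 carried much of the larger value. Cd22 fell by 1.04 ± 0.28 (adjusted p = 0.0431) and Blk had a difference of -0.80 ± 0.24 that missed the threshold (adjusted p = 0.0526), with both MS arrays below both baseline arrays.

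Cr2 behaved otherwise. It was 8.72 and 7.67 in MS rats at 34 days, against 8.05 and 8.03 in CIA rats at baseline. The MS arrays lay on either side of the baseline pair and the difference was 0.16 ± 0.33 (95% interval -0.55 to 0.87). The array with the higher Cr2 was replicate 1, which had the lowest Ms4a1, Cd79b, Cd22, Fcer2, Fcrla, Fcmr and Blk of all 24 arrays. The same replicate had the highest value of the series on the Cr2 probe set 1385700_at, 7.74, against 6.33 in replicate 2 and 6.22 and 6.03 at CIA baseline. In MS rats at 1 hour Cr2 was 8.61 in replicate 1 and 7.75 in replicate 2. Pou2af1 (9.36 and 8.87) and Blk (8.36 and 8.33) were higher in replicate 1 too, and the other 6 genes were lower there, among them Fcmr (9.81 and 10.46) and Fcer2 (7.26 and 8.31). Without MS 34-day replicate 1 the Cr2 difference was -0.37, and without replicate 2 it was 0.68, neither of which passed.

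**Figure D2:**
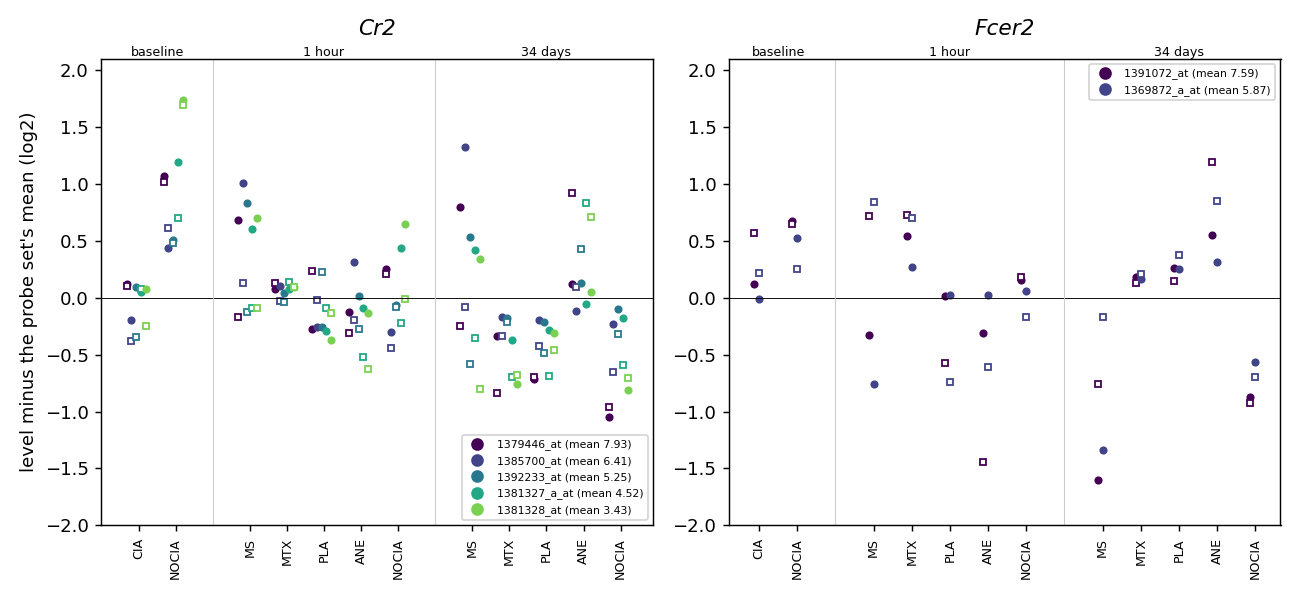
Level minus the mean of the probe set (log2) for the 5 probe sets of Cr2 and the 2 of Fcer2 in each array, by group; colours are probe sets, filled circles replicate 1 and open squares replicate 2. In MS rats at 34 days all 5 Cr2 probe sets are higher in replicate 1 than in replicate 2, while both Fcer2 probe sets are lower in replicate 1.

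The MS calls depended on which arrays were used. Leaving out CIA baseline replicate 1, CIA baseline replicate 2 or MS 34-day replicate 1 left 0 of the 16 probe sets past the threshold, and leaving out MS 34-day replicate 2 left 12. The log2 differences of Ms4a1 ranged from -3.04 to -1.56 over these 4 fits and those of Pou2af1 from -2.05 to -1.71. The fit that gave 12 has only replicate 1, rich in platelet transcripts, for MS rats at 34 days. Without the 4 arrays rich in platelet transcripts, 3 probe sets passed: Ms4a1 (-1.56 ± 0.25, adjusted p = 0.0341), Pou2af1 (-1.71 ± 0.26, adjusted p = 0.0341) and Fcmr (-1.17 ± 0.24, adjusted p = 0.0496). Array weights, and a fit of the compared groups alone, gave 0 calls.

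Other cell types moved in the same arrays. The platelet list was at 1.18 and 0.44 in MS rats at 34 days, against -0.34 and -0.57 in CIA rats at baseline. All 9 of its genes had a positive difference, with a median of 1.09, and 0 of them passed. The T cell list was at -1.58 and -0.28, against 0.48 and 0.51 at baseline, and 3 of its 11 genes fell, Bcl11b (-2.51 ± 0.45), Trat1 (-2.90 ± 0.68) and Cd5 (-1.45 ± 0.40). The NK cell list was at -1.46 and -0.63, against 0.42 and 0.51 at baseline, with 0 of 7 past the threshold. All 7 had a negative difference, among them Eomes (-1.98 ± 0.59, adjusted p = 0.0532) and Prf1 (-1.63 ± 0.55). The measured monocyte genes were all below baseline as well, from Ccr2 (-1.72 ± 0.82) to Vcan (-0.27 ± 1.05), and none passed. Their part in the B cell result was not tested beyond the fits without those arrays.

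**Figure D3:**
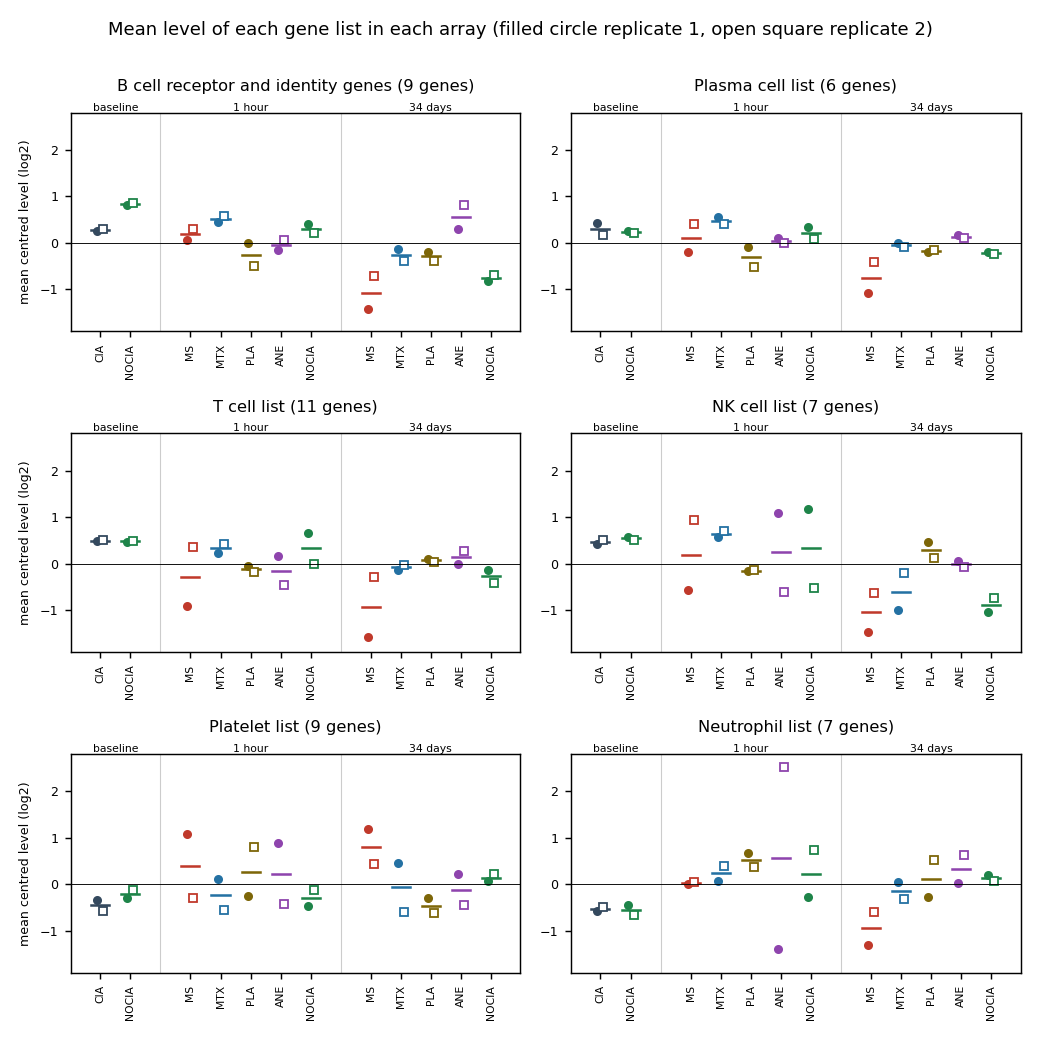
Mean centred level (log2) of the 9 B cell genes and of 5 marker lists in each array, by group; filled circles are replicate 1, open squares replicate 2 and bars the mean of the 2. MS 34-day replicate 1 is the lowest array for B cell, plasma cell, T cell and NK cell genes and the highest for platelet genes, and among the 34-day groups ANE rats are the highest for B cell genes.

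MTX and PLA rats at 34 days had mean levels between those of MS and ANE rats for 8 of the 9 genes, Cr2 being lower in MTX and PLA than in both, and no probe set passed against CIA baseline (0% of all probe sets passed in either comparison). In MTX rats 13 of 16 probe sets were below CIA baseline, against 51.2% of all, and the median over the 9 genes was -0.48. Pou2af1 was 8.13 and 7.85 in MTX rats, against 9.20 and 9.04 at baseline, a difference of -1.13 ± 0.28 (unadjusted p = 0.00105 in limma, adjusted p = 0.629). Ms4a1 was 8.87 and 8.51 in MTX rats, against 9.89 and 9.58, a difference of -1.05 ± 0.41. Fcrla (0.09 ± 0.30) was the only one of the 9 with a positive value there, its MTX arrays being 9.48 and 8.50.

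In PLA rats 15 of 16 probe sets were below CIA baseline, against 52.7% of all, with a median of -0.39 over the 9 genes. Pou2af1 was 8.03 and 8.01 in PLA rats, against 9.20 and 9.04 at baseline, a difference of -1.10 ± 0.28 (unadjusted p = 0.0013 in limma, adjusted p = 0.655). Cr2 was 7.21 and 7.23 in PLA rats, against 8.05 and 8.03, a tight pair on each side with a difference of -0.82 ± 0.33. Fcer2 was close to baseline in both arms, at -0.15 ± 0.38 in PLA rats and -0.19 ± 0.38 in MTX rats.

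The active arms were also set against placebo at the same time, which removes the elapsed time. MS against PLA at 34 days had a median of -0.78 over the 9 genes, and both MS arrays were below both PLA arrays for 11 of 16 probe sets, against 32.8% of all. None of the 16 probe sets passed (0% of all), and the lowest adjusted p was 0.179, while 11 had an unadjusted p under 0.05 in limma, against 23.2% of all. The largest differences were Fcmr (-1.47 ± 0.36) and Ms4a1 (-1.43 ± 0.41), and the Cr2 difference was 0.98 ± 0.33. Without MS 34-day replicate 1 these were -0.79 for Fcmr, -0.69 for Ms4a1 and 0.45 for Cr2, and that of Cd79b was -0.13. Leaving out MS 34-day replicate 2 leaves only replicate 1, rich in platelet transcripts, so the count of that fit is not read here. MTX against PLA at 34 days had a median of -0.04, and the values of the 9 genes lay between -0.17 and 0.48, with 0 of 16 past the threshold (0% of all) and 0 at an unadjusted p under 0.05, against 0.739% of all. The 95% interval for Ms4a1 ran from -1.05 to 0.70. MS against MTX at 34 days had a median of -0.86, with 0 past the threshold (0% of all). Without MS 34-day replicate 1 the median was -0.51 and Ms4a1 was at -0.51.

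The B cell genes of ANE rats at 34 days were near or above CIA baseline. The median over the 9 genes was 0.41 above CIA baseline and 13 of 16 probe sets had a positive difference, while 55.7% of all probe sets had a negative one, but none passed (0% of all), and 0 had an unadjusted p under 0.05 in limma, against 1.48% of all. Ms4a1 was 9.68 and 10.32 in ANE rats at 34 days, against 9.89 and 9.58 in CIA rats at baseline, a difference of 0.26 ± 0.41 (95% interval -0.61 to 1.14). Fcmr was 10.61 and 11.08 in ANE rats, above both baseline arrays at 10.35 and 10.31, with a difference of 0.52 ± 0.36. The ANE arm got neither a needle nor an injection and differed from PLA in its anaesthetic as well.

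**Figure D4:**
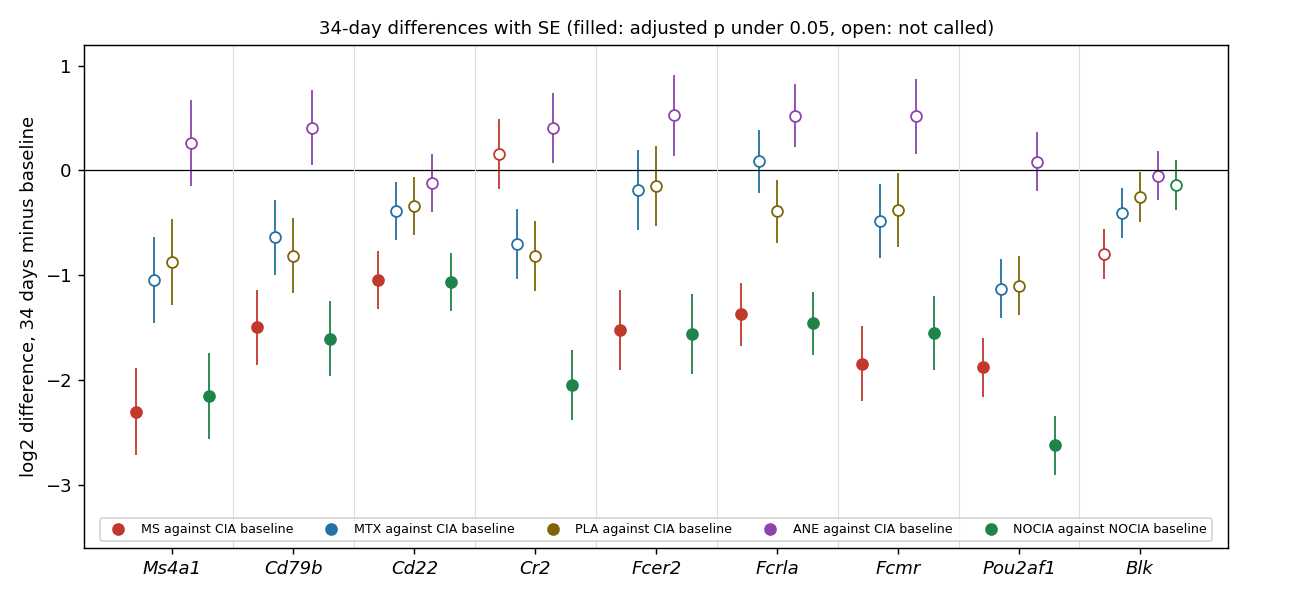
Difference between 34 days and baseline (log2, points) with its SE (lines) for each gene, for the 4 CIA arms against CIA baseline and for NOCIA against NOCIA baseline; filled points passed at an adjusted p under 0.05. MS and NOCIA lie below 0 for most genes, ANE near or above 0, and MTX and PLA between MS and ANE except for Cr2, whose MS point lies near 0.

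Whether the 34-day change in an arm differed from that in healthy rats was tested directly. The ANE change exceeded the NOCIA change for 7 of 16 probe sets, against 0.87% of all, and the median over the 9 genes was 2.07. The 7 include Cr2 1381328_at, kept by the filter only through its NOCIA baseline arrays. It was 2.71 ± 0.40 for Pou2af1 (adjusted p = 0.00642), 2.46 ± 0.47 for Cr2 (0.0161), 1.98 ± 0.42 for Fcrla (0.0249), 2.42 ± 0.58 for Ms4a1 (0.0385), 2.07 ± 0.50 for Fcmr (0.0404) and 2.01 ± 0.51 for Cd79b (0.0458). Fcer2 came close, at 2.08 ± 0.54 (adjusted p = 0.0505). Cd22 (0.94 ± 0.39) and Blk (0.09 ± 0.33) did not pass. Leaving out any of the 8 arrays left between 1 and 3 probe sets past the threshold: 1 without NOCIA baseline replicate 2, CIA baseline replicate 2 or NOCIA 34-day replicate 1, 2 without NOCIA baseline replicate 1, CIA baseline replicate 1 or ANE 34-day replicate 2, and 3 without NOCIA 34-day replicate 2 or ANE 34-day replicate 1. Pou2af1 passed in all 8. The MS, MTX and PLA changes exceeded the NOCIA change by medians of 0.04, 1.10 and 1.17, with 0 of 16 past the threshold in each (0.0338%, 0.0242% and 0.00967% of all). Without the 4 arrays, which leaves MS 34-day replicate 2 alone, the MS median was 0.48. That fit keeps both baselines and all MTX, PLA and NOCIA arrays at 34 days. In it 6 of the 9 genes passed for the MTX change and 5 for the PLA change, at the same medians of 1.10 and 1.17. The absence of calls for MTX and PLA rats thus depended on how the spread was estimated.

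The contrast held part of the difference at baseline. CIA rats at baseline had lower values than NOCIA rats for all 9 genes, and both CIA arrays were below both NOCIA arrays for 14 of 16 probe sets, against 23.1% of all. The median was -0.48, against 0.01 over all probe sets, and none passed (0.00483% of all), with 5 at an unadjusted p under 0.05 in limma, against 3.81% of all. The largest difference was that of Cr2, which was 8.05 and 8.03 in CIA rats, against 8.997 and 8.94 in NOCIA rats (-0.93 ± 0.33). Pou2af1 was 9.20 and 9.04 in CIA rats, against 9.82 and 9.85 in NOCIA rats (-0.72 ± 0.28). The mean centred level of the 9 genes was 0.26 and 0.30 in CIA rats, against 0.81 and 0.85 in NOCIA rats. The count depended on how the spread was estimated. It was 8 with array weights and 7 in a fit of these 4 arrays alone. It was 2 without the 4 arrays rich in platelet transcripts, none of which is a baseline array. In that last fit 0 of the 9 genes passed on their brightest probe sets, so both calls were of dimmer ones. The filter favoured calls of the dimmest Cr2 probe set against NOCIA baseline, and such calls are not support.

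The arms were then set against NOCIA rats at the same time of 34 days, comparisons chosen after the values had been seen. ANE rats exceeded NOCIA rats for 6 of 16 probe sets, against 1.49% of all, and the median over the 9 genes was 1.53. Pou2af1 was 8.82 and 9.58 in ANE rats, against 7.07 and 7.37 in NOCIA rats, higher by 1.98 ± 0.28 (adjusted p = 0.00384). Fcer2 was 8.14 and 8.79 in ANE rats, against 6.72 and 6.67, higher by 1.77 ± 0.38 (adjusted p = 0.0197). Ms4a1 (1.67 ± 0.41, adjusted p = 0.0338), Fcmr (1.59 ± 0.36, 0.0233), Cr2 (1.53 ± 0.33, 0.0206) and Fcrla (1.51 ± 0.30, 0.0144) passed as well. Both ANE arrays were above both NOCIA arrays for 14 of the 16 probe sets, against 33.1% of all, the exceptions being the 2 of Blk. Without NOCIA 34-day replicate 1 the count was 0, and it was 1 without NOCIA 34-day replicate 2, ANE 34-day replicate 1 or ANE 34-day replicate 2.

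Against PLA rats at 34 days, ANE rats had higher values for all 16 probe sets, while 50.1% of all probe sets had lower ones, and for 12 both ANE arrays were above both PLA arrays, against 21.9% of all. The median over the 9 genes was 0.91 and none passed (0% of all), although 8 had an unadjusted p under 0.05 in limma, against 3.07% of all. The largest differences were Cr2 (1.22 ± 0.33), Cd79b (1.22 ± 0.36) and Pou2af1 (1.18 ± 0.28). PLA and MTX rats against NOCIA rats at 34 days had medians of 0.53 and 0.42, and MS rats a median of -0.39, with 0 of 16 past the threshold in each (0.0773%, 0.0193% and 0.0145% of all). The 4 arrays rich in platelet transcripts include no PLA, MTX or NOCIA array at 34 days. Without them 3 of the 9 genes passed for PLA and 1 for MTX rats. Cr2 was 8.72 and 7.67 in MS rats, against 6.87 and 6.96 in NOCIA rats, the one gene of the 9 with both MS arrays above both NOCIA arrays (1.28 ± 0.33, adjusted p = 0.0867). Without MS 34-day replicate 1 the MS median against NOCIA rats was -0.06, with Ms4a1 at -0.15 and Cr2 at 0.76.

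At 1 hour no probe set passed in any group when all arrays were used. Without the 4 arrays rich in platelet transcripts 2 passed in NOCIA rats. There 0 of the 9 genes passed on their brightest probe sets, so both calls were of dimmer ones. The filter favoured calls of the dimmest Cr2 probe set against NOCIA baseline, and such calls are not support. For ANE rats that fit leaves replicate 2 alone, as described below. With all arrays, the shares of all probe sets that passed were 0.00967% in MS, 0.0145% in MTX, 0% in PLA and 0.0338% in ANE rats against CIA baseline. In NOCIA rats all 16 were below NOCIA baseline, against 51.5% of all, and for 15 the arrays did not overlap, against 18.1% of all, with a median of -0.50 over the 9 genes and none past the threshold (0.00483% of all). Of the 9 genes Cd22 had the lowest unadjusted p there, 0.00994 in limma (adjusted p = 1): it was 8.46 and 8.28 at 1 hour, against 9.11 and 9.24 at baseline, a difference of -0.81 ± 0.28. These rats were untreated, so the difference stands between separate rats sampled at the start and 1 hour later.

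Against CIA baseline, the medians over the 9 genes at 1 hour were 0.28 in MTX, -0.15 in MS, -0.33 in ANE and -0.62 in PLA rats, with adjusted p-values of 0.38 or more. In MTX rats both arrays were above both baseline arrays for 10 probe sets, against 20.9% of all, and Blk had the largest value, 0.56 ± 0.24. In ANE rats Fcer2 was 7.28 and 6.14, against 7.72 and 8.16 at baseline, a difference of -1.23 ± 0.38 (adjusted p = 0.38). Without the 4 arrays, which leaves ANE replicate 2 alone, it was -1.79 ± 0.24 and passed (adjusted p = 0.00164). The neutrophil list was at -1.39 and 2.53 in these ANE arrays, against -0.58 and -0.49 at baseline, and its part in the Fcer2 value was not tested. PLA 1-hour replicate 2 was below replicate 1 for most genes: Ms4a1 was 8.60 there and 9.54 in replicate 1, and the platelet list was 0.80 there and -0.26 in replicate 1. The part of platelet transcripts in that gap was not tested. Without the 4 arrays the medians at 1 hour were -0.33 in PLA, -0.11 in ANE and -0.004 in MS rats, and the Ms4a1 difference in PLA rats was -0.19, against -0.67 with all arrays.

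The study's own thresholds, a fold change over 2 with an unadjusted p under 0.05, took as many or more of the 16 probe sets in the comparisons given here. The paper describes them on MAS5 signals, followed by removal of genes with an absent detection call in any array compared. Here they were applied to RMA levels without that removal, so the counts are not those of the study. For the changes over 34 days minus the NOCIA change they took 4 for MS (12.3% of all), 5 for MTX (3.74%), 7 for PLA (5.16%) and 13 for ANE rats (10.1%). Against NOCIA rats at 34 days they took 10 for ANE (5.48%), 1 for PLA (1.46%), 2 for MTX (0.788%) and 3 for MS rats (8.54%). Between arms at 34 days they took 5 for MS against PLA (8.36%), 5 for MS against MTX (3.84%) and 4 for ANE against PLA (0.536%). They took 12 for NOCIA at 34 days against baseline (9.91%) and 8 for MS at 34 days against CIA baseline (13.9%). Elsewhere they took 1 for CIA against NOCIA at baseline (0.739%), 2 for MTX (0.826%) and 1 for PLA rats (0.614%) at 34 days, and 1 for ANE (2.46%) and 1 for NOCIA rats (0.701%) at 1 hour. The 1 at baseline and the 1 for NOCIA rats at 1 hour were Cr2 1381328_at, kept by the filter only through NOCIA baseline.

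The 9 genes moved together across arrays with Cr2 as the exception, which is a description over 24 arrays that share groups and, in some cases, platelet content. The correlation of a gene with the mean of the other 8 was 0.95 for Fcmr, 0.93 for Pou2af1 and Ms4a1, 0.92 for Cd79b, 0.90 for Fcrla, 0.82 for Cd22, 0.75 for Fcer2, 0.65 for Blk and 0.42 for Cr2. Within groups, that is between the deviations of the 2 arrays from their mean, Ms4a1 and Fcmr had a correlation of 0.89, and Ms4a1 and Cd79b one of 0.89. Cr2 had correlations from -0.72 with Cd22 to 0.18 with Pou2af1 within groups. Its correlation with the platelet list was 0.19, whereas those of the other 8 genes lay between -0.67 for Cd22 and -0.33 for Blk. Between group means Cr2 and Pou2af1 had a correlation of 0.73.

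The genes outside the 9 whose pattern was most like theirs, by Pearson's r over 24 arrays with the mean of the 9 among 11044 candidates, were Ighvl1 (0.96), Swap70 (0.95), Bcl11a (0.95), Ciita (0.94), Mnda (0.94), Rcbtb2 (0.93), Ttpal (0.93), Usf3 (0.93), Parp1 (0.93) and Cse1l (0.92). Genes picked this way share the pattern of the 9 over these arrays by selection, so their group differences are not separate support. Ciita is the coactivator of class II antigen presentation genes. Bcl11a, a transcription factor of the B lineage, was 6.26 and 5.88 in NOCIA rats at 34 days, against 8.78 and 8.75 at baseline, and fell by 2.69 ± 0.33 (adjusted p = 0.000285). It was 5.48 and 6.48 in MS rats at 34 days, against 7.65 and 7.56 in CIA rats at baseline, and fell by 1.63 ± 0.33 (adjusted p = 0.0274). In ANE rats at 34 days it was 7.83 and 8.46, 2.07 ± 0.33 above NOCIA rats (adjusted p = 0.00589).

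Of 17 measured BCR signalling genes 4 fell and 1 rose in MS rats at 34 days against CIA baseline, with a median of -0.62. In NOCIA rats at 34 days against baseline 3 fell, with a median of -0.56. The shares of all probe sets that fell were 5.44% in MS and 5.66% in NOCIA rats. The MS calls of this list and of those below share the arrays on which the B cell calls depended. Fits that leave out arrays are not given for them. The phosphatase Ptpn6 (SHP-1), which Cd22 recruits, fell by 1.44 ± 0.34 in MS and by 1.46 ± 0.34 in NOCIA rats. The adaptor Pik3ap1 fell by 1.19 ± 0.31 in MS and by 1.31 ± 0.31 in NOCIA rats. Vav1 (-1.23 ± 0.32) and Prkcb (-1.26 ± 0.33) fell in MS rats, and the scaffold Bank1 (-0.99 ± 0.27) fell in NOCIA rats. Dapp1, an adaptor downstream of phosphoinositide 3-kinase, was the gene that rose in MS rats, by 2.00 ± 0.49 (adjusted p = 0.0386). Several of these genes are also expressed in other blood cells. No gene of this list passed in MTX, PLA or ANE rats at 34 days against CIA baseline.

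Of 8 measured B lineage transcription factors, Bcl11a fell in MS and in NOCIA rats at 34 days, Mef2c fell in NOCIA rats (-1.36 ± 0.34) and Foxo1 rose in NOCIA rats (1.58 ± 0.48, adjusted p = 0.0442). The others, among them Ebf1 (-0.97 ± 0.42 in MS rats and 0.78 ± 0.42 in NOCIA rats), did not pass. The 6 measured genes of B cell survival and homing had 0 calls in both comparisons, with medians of -0.96 in MS and -0.28 in NOCIA rats. They did not all go one way. Cxcr5 was at 0.46 ± 0.24 in MS and -0.15 ± 0.24 in NOCIA rats, and Cd40 at -0.51 ± 0.46 and 1.03 ± 0.46. Of the 6 measured plasma cell genes, which mark the antibody-secreting stage that follows the B cell, Jchain (-1.80 ± 0.30), Prdm1 (-1.64 ± 0.42) and Mzb1 (-1.37 ± 0.30) fell in MS rats and Jchain (-1.05 ± 0.30) in NOCIA rats. Jchain was 8.10 and 8.77 in MS rats at 34 days, against 10.44 and 10.03 in CIA rats at baseline, and here too replicate 1 was the lower array.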

How the data were processed

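The deposited values are log2 expression levels, one column for each of 24 arrays, that per the labels the authors made with RMA in the affy package (versions: not given in the sources used here); MAS5 signals are described in the methods as well. The values ran from 2.18 to 15.02. RMA compresses dim signals, so differences of dim probe sets may be understated. Array number, 2 per group, limits the precision.

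Of 31099 probe sets, 57 controls were left out. In the platform annotation 20826 had 1 gene symbol, 436 several and 9780 none, and 20758 identifiers were found in the reference gene table. A probe set was kept if it exceeded the 40th percentile of the array on 2 or more arrays (20690, with 11057 genes).

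The fit, by lmFit and eBayes of limma 3.58.1 in R 4.3.3, had 1 coefficient per group over all 24 arrays (12 residual degrees of freedom), followed by Benjamini-Hochberg adjustment within a comparison. The p-values rest on a spread pooled over groups. There were 18 planned comparisons and 5 added after values were seen, all 4 CIA arms sharing the CIA baseline arrays. The members, the gene lists and the tests were chosen with earlier results of these data known. Named genes were the members, up to 4 called genes from each other list and those behind a count of 5 or fewer, plus the 10 genes of most similar pattern. Others named as examples were chosen after their values were seen.

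Alternatives were quantile normalization, no filter, a 60th percentile filter, limma-trend with robust eBayes, array weights, a replicate block, only the groups compared, the study's thresholds (fold change over 2, unadjusted p under 0.05), the mean of a gene's probe sets, each array left out and the 4 arrays richest in platelet transcripts left out. Same-numbered arrays came from separate rats, and their deviations correlated between -0.756 and 0.805 (median -0.006) over 66 pairs of groups, so numbers do not pair them. The fit was tested on simulated data. Motifs and figures used Python 3.11.15, pandas 2.3.3 and matplotlib 3.10.9.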

Additional observations from a re-analysis of the deposited data

Results flagged for a closer look

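The difference between the 34-day change of ANE rats and that of NOCIA rats was itself tested and passed for 7 probe sets. The ANE change minus the NOCIA change was 2.46 for Cr2 (1379446_at), 2.94 for Cr2 on its dimmest probe set (1381328_at), 2.07 for Fcmr, 2.01 for Cd79b, 2.42 for Ms4a1, 1.98 for Fcrla (1392886_a_at) and 2.71 for Pou2af1, on the log2 scale. The Cr2 probe set 1381328_at exceeded the 40th percentile in 2 of 24 arrays, so its value is that of a dim probe set. Both were NOCIA baseline arrays, so the filter favoured its call, which is not support. No group had over 2 arrays, so single outlying arrays could not be tested.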

How the results depend on the processing

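Counts here are of the 16 probe sets past the threshold. The share of all probe sets in the same fit is not given beside them, so they describe stability and not the B cell genes. Array weights gave 8 in CIA against NOCIA at baseline (0 in the main setting), 0 in MS (8), 3 in MTX (0) and 4 in PLA rats (0) at 34 days against CIA baseline. They gave 10, 12 and 14 for the MTX, PLA and ANE changes minus the NOCIA change (0, 0 and 7), 4 for ANE against PLA (0), 12, 5 and 2 for ANE, PLA and MTX against NOCIA at 34 days (6, 0 and 0), and 16 for any difference (9). Without the 4 arrays rich in platelet transcripts the counts were 2 for CIA against NOCIA at baseline, 3 for MS at 34 days, 1 for ANE and 2 for NOCIA at 1 hour, 3, 9, 8 and 14 for the MS, MTX, PLA and ANE changes minus the NOCIA change, 10, 5 and 2 for ANE, PLA and MTX against NOCIA at 34 days, and 14 for any difference. Fits of only the groups compared gave 7 for CIA against NOCIA at baseline, 0 for MS and 2 for PLA at 34 days, 8, 11 and 14 for the MTX, PLA and ANE changes, and 11 and 4 for ANE and PLA against NOCIA at 34 days. The study's thresholds gave 1 at baseline, 2 for MTX and 1 for PLA at 34 days, 1 for ANE and 1 for NOCIA at 1 hour, 5 for MS against PLA, 5 for MS against MTX, 4, 5, 7 and 13 for the MS, MTX, PLA and ANE changes, 4 for ANE against PLA, and 10, 1, 2 and 3 for ANE, PLA, MTX and MS against NOCIA at 34 days. The causes were not tested. Without the 4 arrays, 0 of the 9 genes passed on their brightest probe sets at baseline or in NOCIA rats at 1 hour. Counts that involve NOCIA baseline can hold the dimmest Cr2 probe set, whose calls the filter favoured.

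Leaving out 1 array gave 0 to 12 for MS and 4 to 6 for NOCIA at 34 days (10 in the main setting), 0 to 1 for MS at 1 hour, 0 to 13 for MS against PLA and against MTX, 0 to 7 and 1 to 3 for the MS and ANE changes minus the NOCIA change, 0 to 1 and 0 to 10 for ANE and MS against NOCIA at 34 days, 1 to 12 for any difference and 0 to 0 elsewhere; where it left a lone array, that array was assumed to vary like the other groups. With the replicate block 8, 10, 7 and 6 probe sets passed for MS and NOCIA at 34 days, the ANE change and ANE against NOCIA, and any difference gave 6. It changed the call of none of the 207 gene results. None of the 27 gene results past the threshold changed sign when 1 array was left out, whereas 41 of the 180 others did, such as Cr2 in MS rats at 34 days (0.16, and -0.37 without MS replicate 1). The 5 comparisons at 34 days that set an arm against NOCIA, or ANE against PLA, and their alternatives were chosen after seeing the data. With 2 arrays a group, differences of the size of an SE cannot be resolved.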
